A study of Mus musculus with 24 samples.

Results

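The 10 genes described here code for enzymes that oxidise ethanol or the aldehydes made from it and from cell metabolites. They were Adh1 and Adh5, which are alcohol dehydrogenases, Cyp2e1, a cytochrome P450, Cat, catalase, and 6 aldehyde dehydrogenases, Aldh2, Aldh1a1, Aldh1b1, Aldh3a2, Aldh7a1 and Aldh9a1. The genes were chosen by name, and all 10 matched 1 row each among the 55359 genes of the count table. Of the 10, 8 were expressed in the cultures, and Adh1 and Cyp2e1 were not detected.

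The cells were oligodendrocytes, which make the myelin of the brain, from the cortex of C57Bl6J mouse pups of postnatal days 5 to 7. Papain-digested cortex was sorted magnetically for O4, a surface antigen of immature oligodendrocytes, and the cells were differentiated for 3 days in a medium whose main differentiating agent was the thyroid hormone T3, before 3 days with or without ethanol. Experiment 1 (Batch 1 in the labels) had 6 wells at 30 mM ethanol and 6 control wells at 0 mM, and experiment 2 (Batch 2) had 6 wells at 10 mM and 6 control wells at 0 mM. Since each dose was used in 1 experiment and the controls stood in a separate incubator, ethanol cannot be told apart from incubator, nor dose from experiment. RNA was counted by 3′ tag sequencing, in which a read comes from near the 3′ end of a transcript, so that counts do not grow with transcript length. Levels are set side by side between genes on this ground. Other differences in how well each gene is counted were not tested.

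Ethanol is oxidised to acetaldehyde along 3 known routes. Alcohol dehydrogenases of the cytosol use NAD+ and carry most of the flux in the liver, CYP2E1 of the endoplasmic reticulum uses NADPH and oxygen, and catalase of the peroxisome uses hydrogen peroxide. In brain, catalase and CYP2E1 are the routes usually named, because class I alcohol dehydrogenase is scarce there. Acetaldehyde is then oxidised to acetate by aldehyde dehydrogenases, above all by the mitochondrial enzyme ALDH2, which has a very low Michaelis constant for it, while other members of the family work mainly on aldehydes from retinol, lipids, lysine and polyamines.

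The sequences just before the transcription start of the undetected pair and of the abundant alcohol dehydrogenase Adh5 are shown because Adh1 and Adh5 lie on the same chromosome, belong to 1 family and stood at opposite ends of the expression range. Each run is the 250 bases before a RefSeq start on the GRCm38.p6 build, read 5′ to 3′ on the gene's strand. Capitals mark each CG dinucleotide and the letters TATAAA.
Adh1: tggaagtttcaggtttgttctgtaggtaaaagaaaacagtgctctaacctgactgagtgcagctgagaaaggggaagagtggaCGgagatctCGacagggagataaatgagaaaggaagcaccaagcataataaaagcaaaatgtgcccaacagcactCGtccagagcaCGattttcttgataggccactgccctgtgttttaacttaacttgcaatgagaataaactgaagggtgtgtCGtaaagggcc
Adh5: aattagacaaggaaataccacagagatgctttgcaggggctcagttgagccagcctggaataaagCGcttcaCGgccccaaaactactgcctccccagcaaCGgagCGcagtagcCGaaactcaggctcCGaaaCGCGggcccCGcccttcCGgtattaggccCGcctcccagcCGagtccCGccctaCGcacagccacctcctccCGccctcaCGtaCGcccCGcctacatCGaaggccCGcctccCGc
Cyp2e1: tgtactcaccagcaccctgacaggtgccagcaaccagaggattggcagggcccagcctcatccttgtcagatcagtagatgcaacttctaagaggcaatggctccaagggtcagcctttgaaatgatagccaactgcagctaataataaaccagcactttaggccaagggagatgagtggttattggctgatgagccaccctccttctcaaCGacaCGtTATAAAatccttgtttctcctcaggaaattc
The Adh1 window is chr3:138277335-138277584 on the plus strand. The Adh5 window is chr3:138442843-138443092 on the plus strand, and that of Cyp2e1 is chr7:140763569-140763818 on the plus strand. The Adh5 window holds 21 CG dinucleotides, more than 83.7% of the 32817 promoter windows of the same length, whose median was 6. RefSeq lists a further Adh5 start upstream, whose window holds 2. The Adh1 window holds 5 and the Cyp2e1 window 2. TATAAA, searched on the gene's strand only, was found in 7.6% of all windows. It begins 31 bases before the Cyp2e1 start, a position shared by 0.308% of windows, and is not among the letters of the Adh1 window or the printed Adh5 window. The window of the further Adh5 start does hold it, 207 bases before that start. Entries were found for 8 of the 10 genes, and not for the expressed genes Aldh2 and Aldh7a1. Among the other expressed genes, Aldh3a2 had 18 CG dinucleotides, Cat 9, Aldh9a1 8 and Aldh1b1 4, and the windows of Aldh1a1 had 3 and 1. A high CG count was thus not common to the expressed enzymes that had an entry.

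Adh1, the class I enzyme that carries most ethanol oxidation in the liver, was read 12 times among 34341341 counts in all 24 wells. It was at 0 in 16 wells, and no well had more than 3 counts. The wells with reads were spread over all 4 groups, with 2 counts summed over the controls of experiment 1, 2 at 30 mM, 7 in the controls of experiment 2 and 1 at 10 mM. Pooled over the wells, Adh1 stood at 0.349 CPM (counts scaled to the library size), with an exact 95% Poisson interval of 0.181 to 0.610 that covers counting error only, as do the floors given here. Cyp2e1, the ethanol-inducible P450, was read 10 times, was at 0 in 15 wells and never exceeded 2 counts in a well. Its pooled level was 0.291 CPM (exact 95% Poisson interval 0.140 to 0.536), with summed counts of 1 and 2 in the controls and the 30 mM wells of experiment 1, and of 3 and 4 in the controls and the 10 mM wells of experiment 2. A gene was called detected where every well of at least 1 group had over 3 counts, the limit that a count of 0 allows, which corresponded to 1.65 to 2.53 CPM depending on the well. No well of either gene was above that floor, and neither passed the filter on low counts. Fitted without the filter, neither gene was called by edgeR at either dose (lowest adjusted p = 0.644), and Adh1 at 10 mM, with 1 count against 7 in its controls, had an unadjusted p of 0.027. Of the last 500 bases of Cyp2e1 transcripts, 18.1% of 30-base windows and 4.05% of 100-base windows also occurred in transcripts of other genes. For Adh1 none did. Such a window could lie anywhere along the other transcript, on either strand.

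The other 8 enzymes were above the floor in all 24 wells. Of all genes, 16846 (30.4%) were detected, with a median level of 20.1 CPM. CPM were scaled by trimmed mean of M-values (TMM) within each experiment, so levels of different experiments were scaled separately. Aldh7a1, which oxidises the semialdehyde of lysine breakdown, was the highest of the 10, with a mean of 191 CPM over the wells, above 94.9% of detected genes. Adh5 followed with 178 CPM (above 94.5%). Its product, class III alcohol dehydrogenase, oxidises the glutathione adduct of formaldehyde and reduces S-nitrosoglutathione, and acts poorly on ethanol. Aldh2, the mitochondrial acetaldehyde enzyme, stood at 91.5 CPM and Cat at 70.2 CPM. Aldh1a1, a cytosolic enzyme for retinaldehyde that also takes acetaldehyde, stood at 54.7 CPM, and Aldh9a1, which oxidises the aldehydes of carnitine and polyamine metabolism, at 48.8 CPM. Aldh3a2, the fatty aldehyde dehydrogenase of the endoplasmic reticulum, and Aldh1b1, a mitochondrial relative of ALDH2, were near the median of detected genes, with 21.1 and 18.7 CPM.

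Within a well, this order was kept at some steps and not at others. Adh5 exceeded Aldh2 in 24 of 24 wells, Cat exceeded Aldh1a1 in 24, and Aldh9a1 exceeded Aldh3a2 in 24. Aldh2 exceeded Cat in 21 wells and Aldh7a1 exceeded Adh5 in 19. Aldh1a1 was above Aldh9a1 in 5 of 6 wells in each of 3 groups but in 2 of 6 at 10 mM, and Aldh3a2 was above Aldh1b1 in 11 of 24 wells, so these neighbours did not have a fixed order. The summed level of the 10 genes was 721 ± 38.9 CPM (SD, n = 6) in the controls of experiment 1 and 757 ± 51.5 CPM (SD, n = 6) at 30 mM. It was 608 ± 19.7 CPM (SD, n = 6) in the controls of experiment 2 and 611 ± 27.8 CPM (SD, n = 6) at 10 mM.

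**Figure D1:**
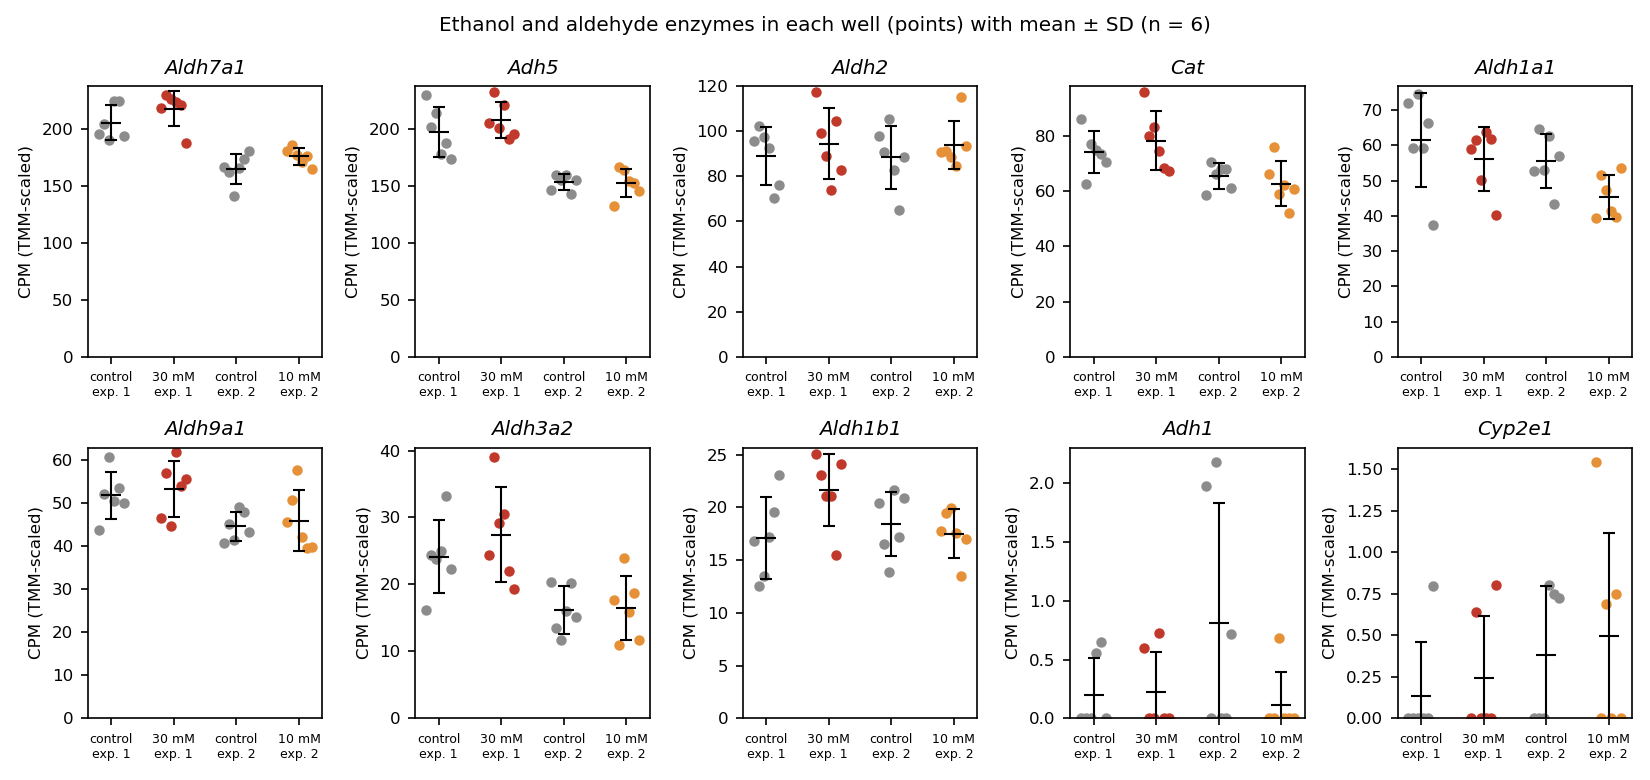
CPM (TMM-scaled within each experiment, linear axis from 0 with its own upper limit in each panel) of the 10 enzymes in each of the 24 wells by group. Points are wells and bars the mean ± SD of 6 wells. The ethanol and control wells of an experiment overlap for each of the 8 detected enzymes. The highest well of Adh1 is at 2.18 CPM and that of Cyp2e1 at 1.54 CPM.

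Among the enzymes that can form acetaldehyde, neither detected gene passed the test at either dose. In the controls of experiment 1, Adh5 ranged from 174 to 230 CPM with a median of 195 CPM, and at 30 mM from 192 to 233 CPM with a median of 203 CPM. In the controls of experiment 2 it ranged from 143 to 160 CPM (median 155 CPM), and at 10 mM from 133 to 167 CPM (median 153 CPM). The groups of each experiment overlapped over most of their range. Its log2 change was 0.08 (edgeR SE 0.0739, adjusted p = 0.576) at 30 mM and -0.0056 (SE 0.0685, adjusted p = 0.99) at 10 mM. With 6131 counts over the wells, Adh5 was measured closely, and the 95% interval of its fold change ran from 0.950 to 1.17 at 30 mM and from 0.906 to 1.09 at 10 mM. Cat, which removes hydrogen peroxide and can use it to oxidise ethanol, ranged from 62.6 to 86.2 CPM (median 74.3 CPM) in the controls of experiment 1 and from 67.5 to 96.0 CPM (median 77.4 CPM) at 30 mM. In experiment 2, Cat ranged from 58.5 to 70.6 CPM (median 67.2 CPM) in the controls and from 52.3 to 76.1 CPM (median 61.6 CPM) at 10 mM. The control wells lay within the range of the 10 mM wells. For Cat, edgeR gave a log2 difference of 0.09 (SE 0.0968, adjusted p = 0.628) at 30 mM and of -0.06 (SE 0.0937, adjusted p = 0.883) at 10 mM.

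Aldh2 and Aldh1b1, both mitochondrial, did not pass the test at either dose. Aldh2 ranged from 70.4 to 102 CPM (median 94.2 CPM) in the controls of experiment 1 and from 74.0 to 117 CPM (median 94.2 CPM) at 30 mM. It ranged from 65.1 to 106 CPM (median 89.8 CPM) in the controls of experiment 2 and from 84.6 to 115 CPM (median 91.2 CPM) at 10 mM. The medians of the 4 groups lay between 89.8 and 94.2 CPM, and the wells within each group differed by more than that. In edgeR the log2 fold change of Aldh2 was 0.09 (SE 0.101, adjusted p = 0.637) at 30 mM and 0.08 (SE 0.0880, adjusted p = 0.838) at 10 mM. Its 95% interval ended at a fold of 1.22 at 30 mM and 1.19 at 10 mM. Aldh1b1 had the largest difference of the 8 at 30 mM. It ranged from 12.5 to 23.0 CPM (median 17.0 CPM) in the controls of experiment 1 and from 15.5 to 25.04 CPM (median 22.1 CPM) at 30 mM. Of the 30 mM wells, 1 lay below most controls, and the highest control lay among the ethanol wells. Its log2 fold change was 0.36 (SE 0.177, 95% interval 0.00 to 0.72), with an unadjusted edgeR p of 0.0474 and an adjusted p of 0.206. At 10 mM it ranged from 13.5 to 19.9 CPM against 13.8 to 21.7 CPM in its controls, a log2 change of -0.07 (edgeR SE 0.169, adjusted p = 0.932). Aldh1b1 had 18 to 42 counts in a well. Its coefficient of variation between the wells of a group, 13.1% to 22.7%, stood beside the 18.2% or more that counting error alone gives at this depth.

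Aldh1a1 was lower in the ethanol group of both experiments without passing the test. In experiment 1 it ranged from 37.3 to 74.7 CPM (median 62.9 CPM) in the controls and from 40.2 to 63.9 CPM (median 60.2 CPM) at 30 mM, and its lowest control well lay below all the ethanol wells. At 30 mM the log2 difference was -0.14 (edgeR SE 0.121, adjusted p = 0.525). In experiment 2 the controls ranged from 43.4 to 64.6 CPM (median 55.0 CPM) and the 10 mM wells from 39.3 to 53.5 CPM (median 44.4 CPM). The groups overlapped: 3 of the 6 control wells lay within the range of the ethanol wells, and the other 3 lay above it. At 10 mM it was -0.29 (SE 0.107, 95% interval -0.50 to -0.07), with an unadjusted edgeR p of 0.00889 and an adjusted p of 0.274. Aldh1a1 shares 12.1% of the 30-base windows near its 3′ ends with its close copy Aldh1a7, and none of the 100-base windows. How reads that fit both genes were counted is not given in the sources used here.

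The enzymes of fatty, amino and polyamine aldehydes did not pass the test at either dose. Aldh3a2 ranged from 16.2 to 33.2 CPM (median 24.1 CPM) in the controls of experiment 1 and from 19.3 to 39.0 CPM (median 26.8 CPM) at 30 mM. In experiment 2 it ranged from 11.6 to 20.4 CPM (median 15.6 CPM) in the controls and from 11.0 to 24.004 CPM (median 16.8 CPM) at 10 mM. It had the highest coefficient of variation of the 8, 21.9% to 29.2% within groups, where counting error alone gives 16.1% to 21.2%. Its log2 fold change was 0.19 (SE 0.166, edgeR adjusted p = 0.52) at 30 mM and 0.03 (SE 0.187, edgeR adjusted p = 0.977) at 10 mM. Aldh7a1 ranged from 190 to 224 CPM (median 199 CPM) in the controls of experiment 1 and from 187 to 229 CPM (median 222 CPM) at 30 mM. In experiment 2 it ranged from 141 to 180 CPM (median 166 CPM) in the controls and from 164 to 185 CPM (median 177 CPM) at 10 mM. The ethanol median was the higher one in both experiments. For Aldh7a1, edgeR fitted a log2 fold change of 0.08 (SE 0.0693, adjusted p = 0.502) at 30 mM and of 0.09 (SE 0.0666, adjusted p = 0.703) at 10 mM. Aldh9a1 ranged from 43.8 to 60.6 CPM (median 51.3 CPM) in the controls of experiment 1 and from 44.5 to 61.7 CPM (median 54.6 CPM) at 30 mM, so that the groups had nearly the same range. In experiment 2 it ranged from 40.8 to 49.0 CPM (median 44.2 CPM) in the controls and from 39.6 to 57.6 CPM (median 43.8 CPM) at 10 mM. Its log2 fold change was 0.04 at both doses (SE 0.107, edgeR adjusted p = 0.882 at 30 mM; SE 0.110, edgeR adjusted p = 0.948 at 10 mM).

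In all, 0 of the 8 tested enzymes were called at 30 mM by edgeR's quasi-likelihood test at an adjusted p under 0.05, where 9.67% of the 13235 genes tested were called. At an unadjusted p under 0.05, 1 of 8 passed (Aldh1b1), against 23.5% of all genes, and DESeq2 and limma voom also called 0. At 10 mM, 0 of 8 were called, where 0.657% of the 13538 genes tested were called, and 1 of 8 had an unadjusted p under 0.05 (Aldh1a1), against 10.1% of all genes, with 0 calls by DESeq2 and limma voom. None of the 8 had ethanol and control wells that did not overlap, against 4.56% of genes at 30 mM and 0.842% at 10 mM. The median log2 fold change of the 8 was 0.08 at 30 mM, beside 0.02 for all genes tested, and 0.01 at 10 mM, beside -0.0023. A p above the threshold does not show that a level was the same. The widest 95% interval at 30 mM was that of Aldh1b1, from a fold of 1.00 to 1.64, and the narrowest that of Aldh7a1, from 0.961 to 1.17. At 10 mM the widest was that of Aldh3a2, from 0.789 to 1.32. Whether the wells came from separate cultures or animals is not stated, so these p-values measure the spread between wells.

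None of the 8 responses was shown to differ between the doses. The log2 fold change at 30 mM minus that at 10 mM, tested as an interaction over the 24 wells, was largest for Aldh1b1 at 0.43 (SE 0.240, edgeR adjusted p = 0.36). It lay between -0.02 (Aldh7a1) and 0.15 (Aldh3a2) for the other 7. By the same edgeR test, 3.28% of 14655 genes differed between the doses, and of the 8 none had an unadjusted p under 0.05, against 17.2% of all genes.

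Without ethanol, several of these enzymes stood at different levels in the 2 experiments. Of the 8, 5 were higher in the controls of experiment 1 than in those of experiment 2, at an edgeR adjusted p under 0.05, and 0 were lower. Over all 13479 genes tested, 43.6% were called, 21.3% as higher in experiment 1. Adh5 had a log2 difference of 0.41 (SE 0.0695, edgeR adjusted p = 8.93e-07), and the lowest control well of experiment 1, at 174 CPM, lay above the highest of experiment 2, at 160 CPM. Aldh7a1 had a log2 difference of 0.36 (SE 0.0678, edgeR adjusted p = 7.74e-06), with 190 CPM as the lowest and 180 CPM as the highest. In these CPM, which were scaled separately in each experiment, the control groups did not overlap for Adh5 and Aldh7a1. The same held for 18.8% of all genes (8.67% with experiment 1 the higher). The log2 differences came from a fit in which both control groups were scaled together. Aldh3a2 had the largest log2 difference, 0.62 (SE 0.171, edgeR adjusted p = 0.00212), with overlapping wells. Aldh9a1 (0.26, edgeR adjusted p = 0.038) and Cat (0.23, edgeR adjusted p = 0.0391) passed narrowly. With total counts as the only scaling their adjusted p was 0.106 and 0.122, with DESeq2 0.0876 and 0.0844, and both calls were also lost without the well numbered 1 or 6 of the controls of experiment 2 or the well numbered 3 of the controls of experiment 1. The call of Cat was also lost without the well numbered 1 of the controls of experiment 1, and that of Aldh9a1 without the well numbered 5 of that group or 3 of the controls of experiment 2. Aldh2 had a log2 difference of 0.05 (edgeR adjusted p = 0.671) and Aldh1b1 of -0.08 (edgeR adjusted p = 0.736). Aldh1a1 had 0.21 (edgeR adjusted p = 0.12), and 0.31 (edgeR adjusted p = 0.00923) without the well numbered 6 of the controls of experiment 1. The median over the 8 was 0.24, beside -0.0084 for all genes.

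**Figure D2:**
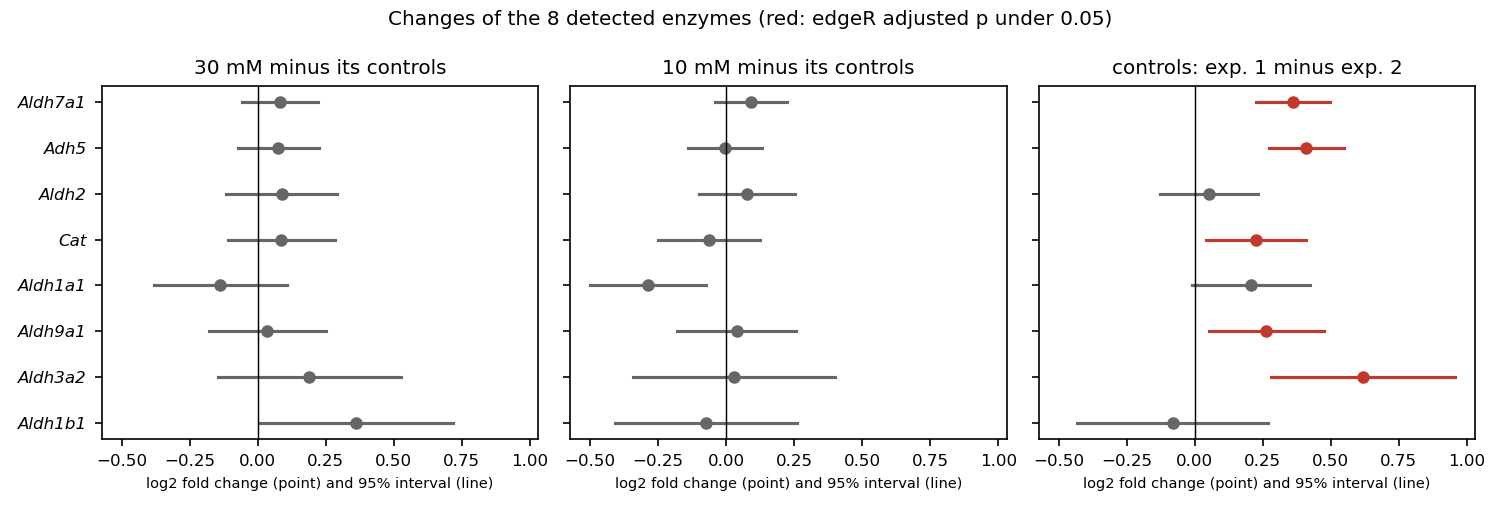
Log2 fold changes (points) with 95% intervals (lines) of the 8 detected enzymes at 30 mM and at 10 mM against their own controls, and between the control groups, from edgeR. Red marks an adjusted p under 0.05. No enzyme is red at either dose, and 5 are red between the control groups, the largest being Aldh3a2 at 0.62.

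Total counts per well lay between 1184609 and 1817028. All 12 oligodendrocyte markers were above the floor in every well, but 9 of 10 astrocyte markers were as well, so the wells held RNA of more than oligodendrocytes. In bulk RNA, fewer cells of a type and less RNA per cell cannot be told apart. Between the control groups, the summed level of 12 microglia markers was 203 to 328 CPM in experiment 1 and 2353 to 2787 CPM in experiment 2, and all 10 tested were lower in experiment 1. That of 4 ependymal and choroid plexus markers, of which Tmem212 and Ccdc153 were not above the floor, was 7381 to 10520 CPM in experiment 1 and 2180 to 2734 CPM in experiment 2. Between 30 mM and its controls, 11 fibroblast and mural markers summed to 476 to 597 CPM at 30 mM and 1102 to 1470 CPM in the controls. The oligodendrocyte markers summed to 9765 to 16391 CPM at 30 mM, where the well numbered 1 stood apart from the next at 10353 CPM, and to 7923 to 9293 CPM in the controls. Without that well, 0 of the 8 enzymes were called at 30 mM by edgeR, as with it. The astrocyte markers summed to 5304 to 6613 CPM at 30 mM and 3999 to 4804 CPM in the controls. Gene by gene, edgeR called 8 of 12 oligodendrocyte markers higher at 30 mM and 1 lower. It called 5 of 9 tested astrocyte markers higher and 0 lower, and 0 of 11 fibroblast and mural markers higher and 8 lower. Over all genes tested, 3.02% were called higher and 6.65% lower. Of 6 endothelial markers, 3 were above the floor in every well at 30 mM and in its controls, and Cldn5, Cdh5 and Tek were not. The 6 summed to 42.3 to 71.1 CPM at 30 mM and 45.0 to 65.1 CPM in the controls. Cldn5 was at 0 in every well of these groups. At 10 mM, edgeR called 3 of 12 oligodendrocyte markers higher and 0 lower. It called 2 of 10 tested fibroblast and mural markers lower and 0 of 9 astrocyte markers, where 0.657% of all genes were called. Of 7 neuron markers, 0 were higher and 2 lower at 30 mM, and 1 higher and 1 lower at 10 mM. Of 5 oligodendrocyte precursor markers, 0 were called at either dose, and 4 were lower in the controls of experiment 1 than of experiment 2. The part of these markers in the levels of the enzymes was not tested.

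The enzymes belong to larger families. Of 21 aldehyde dehydrogenases, 16 were detected, and of 7 alcohol dehydrogenases 3 were, namely Adh5, Adh6b and Adhfe1, a mitochondrial hydroxyacid transhydrogenase. Adh4, Adh6a and Adh7, the other relatives of Adh1, were not detected either. The highest aldehyde dehydrogenase was not among the 10. It was Aldh1l1, a folate enzyme widely used as an astrocyte marker, with 307 ± 29.7 CPM (SD, n = 6) in the controls of experiment 1 and 328 ± 35.3 CPM (SD, n = 6) at 30 mM, above the mean of Aldh7a1 in both. Outside the 10, 1 of 9 tested aldehyde dehydrogenases rose at 30 mM and 1 fell, where 3.02% of all genes tested were called higher and 6.65% lower. Aldh4a1, a mitochondrial enzyme of proline breakdown, was called higher, going from 59.6 ± 6.93 to 80.0 ± 5.26 CPM (SD over 6 wells), or by 0.42 in log2 (edgeR adjusted p = 0.0024). Its log2 fold change at 10 mM was also 0.42 (edgeR adjusted p = 0.0582). Aldh18a1, which makes proline, fell by 0.44 on the log2 scale at 30 mM (edgeR adjusted p = 0.00454) and had 0.14 at 10 mM, and these changes differed by -0.59 (edgeR adjusted p = 0.00874). Adh6b and Adhfe1 were not called at either dose. Adhfe1 had log2 fold changes of 0.36 at 30 mM and -0.32 at 10 mM, which differed by 0.66 (edgeR adjusted p = 0.0427), a call lost in 19 of 31 alternative settings.

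**Figure D3:**
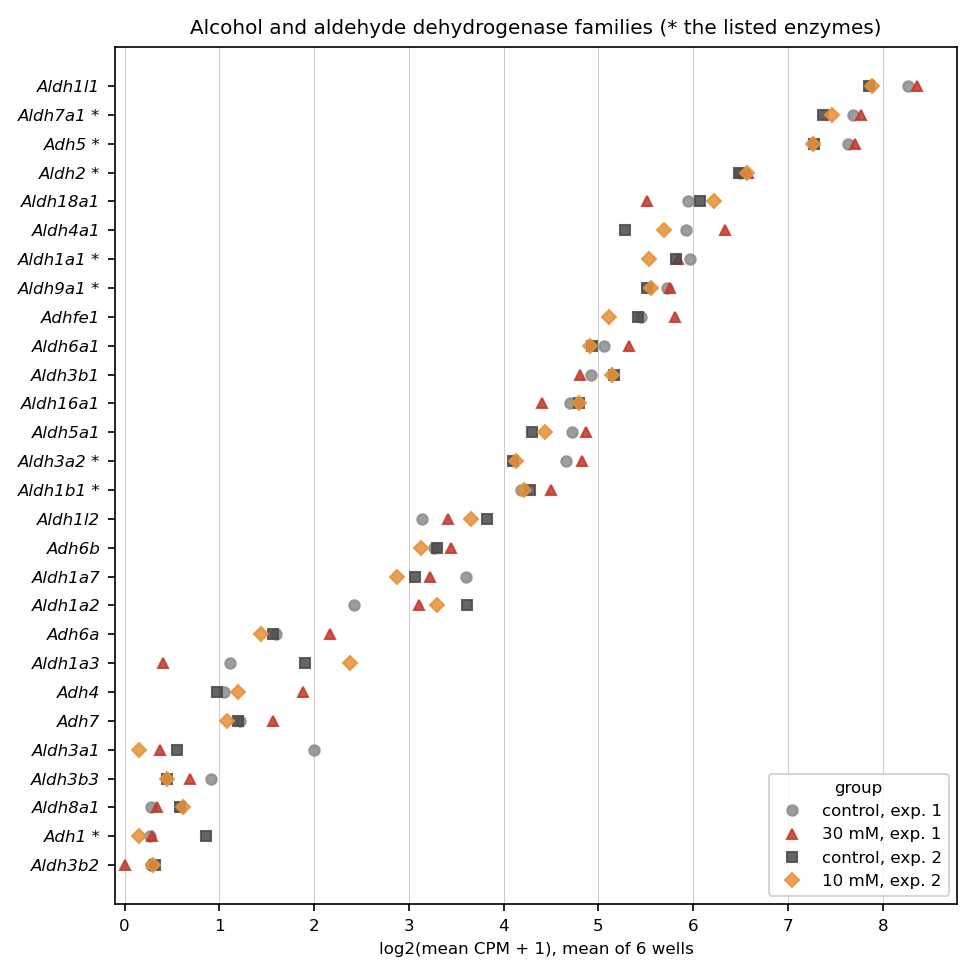
Mean level over 6 wells, as log2(mean CPM + 1), of each listed alcohol and aldehyde dehydrogenase in the 4 groups. Stars mark the genes among the 10 enzymes. Aldh1l1 is the highest, Aldh7a1 and Adh5 follow, and Adh1 lies next to the lowest.

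Genes that act before, beside or after the 10 enzymes were counted from lists made for their roles. The lists were chosen with earlier results of these data known. A list count set beside the share of all genes is therefore a description and not an independent test. Esd, which completes the formaldehyde route that Adh5 begins, fell by 0.73 in log2 units at 30 mM (edgeR SE 0.0746, adjusted p = 1e-09), from 287 ± 19.998 to 172 ± 22.6 CPM (SD, n = 6), while Adh5 itself had 0.08. The log2 fold change of Esd at 10 mM was -0.22 (edgeR adjusted p = 0.154), and the doses differed by -0.52 (edgeR adjusted p = 0.0013). Without ethanol, Esd stood at 159 ± 12.9 CPM (SD, n = 6) in experiment 2. The controls of experiment 1 were thus higher than those of experiment 2, by 0.89 in log2 (edgeR adjusted p = 6.67e-21), more than the change at 30 mM. Another list held 13 genes other than Cat that remove peroxide or, for Sod1, Sod2 and Sod3, superoxide. Of these 13, 8 fell at 30 mM and 1 rose, where 6.65% of all genes tested were called lower and 3.02% higher. Between 7 and 9 of them fell under every alternative setting run. The median log2 fold change of the 13 was -0.25, beside 0.02 for all genes. Those that fell were the glutathione peroxidases Gpx1 (-0.19, a call lost in 11 of 20 settings), Gpx4 (-0.35) and Gpx7 (-0.69), the peroxiredoxins Prdx1 (-0.25), Prdx4 (-0.50) and Prdx5 (-0.39), and the superoxide dismutases Sod1 (-0.30) and Sod3 (-0.55). Prdx6 rose by 0.22 and was the most abundant, at 2523 ± 160 CPM (SD, n = 6) in the controls. None of the 13 was called at 10 mM by edgeR, and the responses of Gpx4, Gpx7, Prdx4, Prdx5 and Sod1 differed between the doses (edgeR adjusted p from 0.00164 to 0.027). The same 13 genes were all higher in the controls of experiment 1 than in those of experiment 2, as were 21.3% of all genes. Of 17 tested peroxisome genes, 1 was called at 30 mM, Pex6 (0.38, edgeR adjusted p = 0.0495), a call lost in 14 of 20 settings, while Abcd3 (-0.02), a peroxisomal transporter, and Hsd17b4 (0.06), an enzyme of peroxisomal beta-oxidation, were not called.

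Of 9 tested carbonyl and aldo-keto reductases, which reduce aldehydes instead of oxidising them, Dcxr rose by 0.41 at 30 mM and Akr1a1 and Cbr3 fell by 0.35 and 0.38. Akr1a1, a general aldehyde reductase, was the most abundant, at 487 ± 26.6 CPM (SD, n = 6) in the controls and 383 ± 12.2 CPM (SD, n = 6) at 30 mM (edgeR adjusted p = 5.21e-05). Among 3 tested genes that use acetate or make acetyl-CoA in the cytosol, Acly fell by 0.31 and Acss1 was not called (-0.16). Of 8 tested partners of CYP2E1 and other P450s, Cyb5r3, a cytochrome b5 reductase, fell by 0.25, and Cyb5a was not called (-0.06). Among the retinoid genes, which act on the same pathway as Aldh1a1, Dhrs3, a retinaldehyde reductase, had -0.18 and Rdh11, a retinol dehydrogenase, -0.01, and neither was called. Of 11 genes listed for NADH shuttles and lactate dehydrogenase, Gpd2 rose by 0.25. The malate dehydrogenases Mdh1 and Mdh2 of that list fell by 0.25 and 0.23, while Ldha (-0.17) and Ldhb (0.01) were not called. Of 6 tested lipid genes linked to Aldh3a2, Plpp3, a lipid phosphate phosphatase, rose by 0.49 (edgeR adjusted p = 6.33e-07) and by 0.39 more than at 10 mM, and Sgpl1, which makes the fatty aldehyde that Aldh3a2 oxidises, was not called (-0.20). Of 4 tested genes of non-oxidative ethanol products, 0 were called by edgeR and 1 had an unadjusted p under 0.05, and Pld1 and Pld2, which can form phosphatidylethanol, had -0.07 and 0.26. Of the 91 list genes tested and reported here, 6 rose and 16 fell at 30 mM. Over all genes tested, 3.02% were called higher and 6.65% lower, and these shares also stand beside the counts of the single lists. At 10 mM, 0 of 93 were called by edgeR, and 11 had an unadjusted p under 0.05, against 10.1% of all genes. The calls of Cbr3 (lost in 5 of 20 settings), Acly (4), Mdh2 (4), Cyb5r3 (1), Gpd2 (1) and Prdx6 (1) at 30 mM also depended on the setting.

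**Figure D4:**
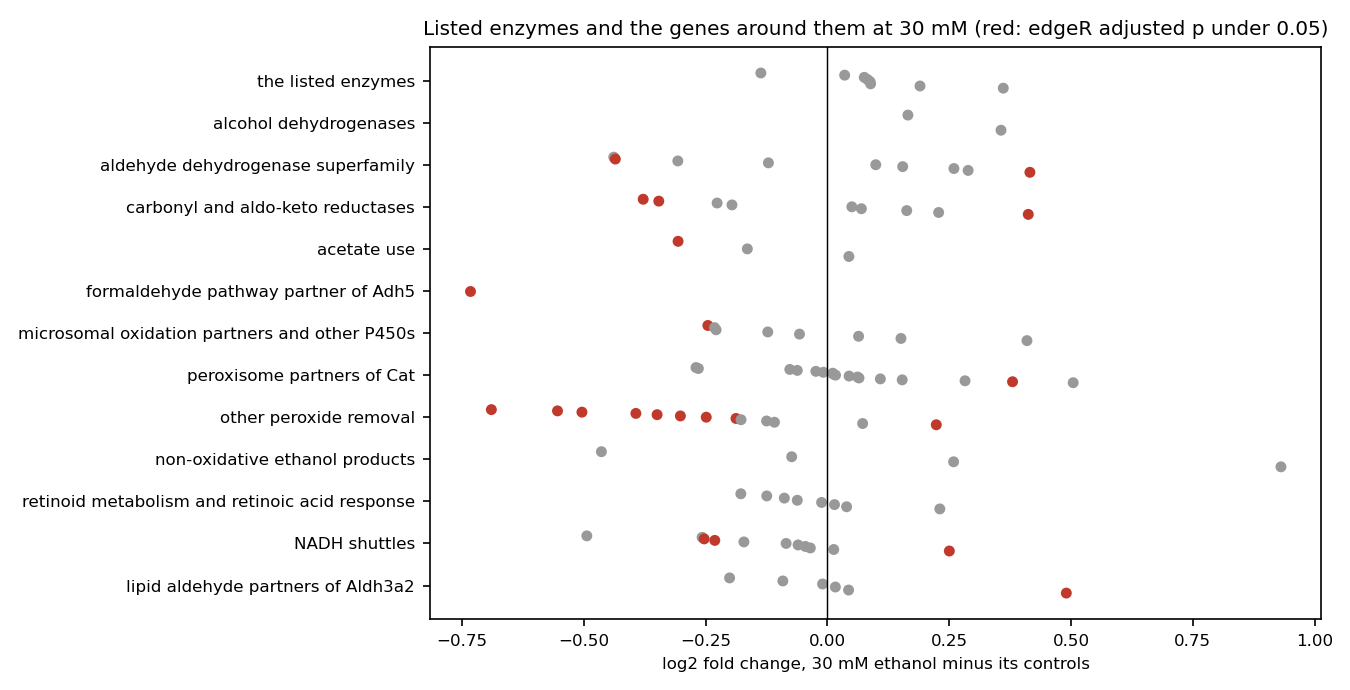
Log2 fold changes at 30 mM ethanol against its controls for the 8 tested enzymes (top row) and for the tested genes of the lists around them. Each point is a gene, and red marks an edgeR adjusted p under 0.05. No enzyme of the top row is red. In the row labelled other peroxide removal, which also holds the superoxide dismutases Sod1, Sod2 and Sod3, 9 of 13 genes are red. Of these, 8 lie to the left of 0, Sod1 and Sod3 among them.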

How the data were processed

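The values deposited by the authors are unnormalised 3′ tag counts of 55359 Ensembl genes in 24 wells. Per the labels' protocols, libraries came from at most 150 ng of RNA, read single-end over 100 bases. The submitters' processing notes name cutadapt 1.18, STAR and the build GRCm39. The counter, annotation, use of strand and handling of PCR copies are not given in the sources used here, so counts of overlapping genes and close copies are uncertain. Symbols were matched for 52083 identifiers (94.1%). No gene coordinates are given, since the annotation used here is of the GRCm38 build; promoter windows are credited to RefSeq on GRCm38.p6.

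Counts were tested by quasi-likelihood in edgeR 4.0.16 (R 4.3.3) with TMM scaling, the filterByExpr filter at 10 counts and Benjamini-Hochberg adjustment over all genes, called at an adjusted p under 0.05. A fit held 30 mM and the controls of its experiment, another 10 mM and those of its experiment, another both control groups, and another all 24 wells, for the interaction of dose and ethanol. The scripts were tested on simulated data. Total counts per well ranged from 1184609 to 1817028. The 10 enzymes and the lists around them were chosen with earlier results of these data known. Named from the lists were each gene called at either dose or for the dose difference, and the 2 most abundant of each list; 2 listed genes are not reported here and are left out of the lists' counts. Genes alike in pattern were to be named only for an enzyme called at either dose, and there was none. Alternatives were RLE factors, total counts only, other filters and thresholds, DESeq2 1.42.0, limma voom (limma 3.58.1), a joint fit, a replicate block and leaving out each well. Alternatives for the list genes were added after seeing the data.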

Additional observations from a re-analysis of the deposited data

Results flagged for a closer look

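Among the 8 detected enzymes, 2 of 32 sets of 6 wells held a well far from the other 5 by Dixon's test at the 95% level, where chance gives 1.6. Aldh2 had 115 CPM in the 10 mM well numbered 5, with the other wells at 84.6 to 93.3 CPM. Aldh7a1 had 187 CPM in the 30 mM well numbered 6, with the others at 218 to 229 CPM. Over the enzymes and the named list genes together, 14 of 176 sets were marked, where chance gives 8.8. In the controls of experiment 1, the well numbered 6 was the lowest for Acss1 (50.8 CPM), Pex6 (22.2 CPM), Prdx5 (383 CPM) and Ldhb (724 CPM). In the same group, Pld2 had 25.6 CPM in the well numbered 1 and Mdh2 had 548 CPM in the well numbered 5, each the highest. At 30 mM, Esd had 214 CPM in the well numbered 1 and Plpp3 had 791 CPM in the well numbered 2, both the highest, and Sod3 had 41.6 CPM in the well numbered 5, the lowest. At 10 mM, Adhfe1 had 43.3 CPM in the well numbered 5, the highest, and Cbr3 had 33.3 CPM in the well numbered 6, the lowest. Acly had 61.6 CPM in the well numbered 2 of the controls of experiment 2, the lowest.

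The log2 fold change at 30 mM differed from that at 10 mM for 9 list genes by edgeR's interaction test, and for none of the enzymes. The difference, 30 mM minus 10 mM, was 0.66 for Adhfe1 and 0.39 for Plpp3. It was -0.59 for Aldh18a1, -0.52 for Esd, -0.55 for Gpx4, -0.94 for Gpx7, -0.49 for Prdx4, -0.32 for Prdx5 and -0.30 for Sod1. The calls of Prdx5 and Sod1 were each lost in 4 of 31 alternative settings, and that of Plpp3 in 1.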

How the results depend on the processing

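No enzyme was called for ethanol or for the dose difference in any alternative fit with the threshold kept, the lowest adjusted p being 0.11 at 30 mM, 0.155 at 10 mM and 0.253 for the difference. With an unadjusted p under 0.05, 1 enzyme passed at 30 mM and 1 at 10 mM. Over all genes, the calls at 10 mM numbered 89, and were 39 with DESeq2, 21 in the joint fit and 37 to 95 without 1 well each. Those for the dose difference numbered 481, and 329 to 759 without 1 well each, the highest without the 30 mM well numbered 1. Between the control groups, 5 enzymes were called, and 3 with total counts only, 3 with DESeq2, 3 at an adjusted p under 0.01 and 3 to 6 without 1 well each. Some signs turned. Adh5 at 10 mM had 0.018 without a filter and 0.0037 in the joint fit. For the dose difference, total counts only gave 0.023 (Aldh2), 0.0041 (Aldh7a1) and 0.0076 (Aldh9a1), and a filter of 10 counts in every well of a group gave 0.021 (Aldh2), 0.0022 (Aldh7a1) and 0.0058 (Aldh9a1). Between the controls, Aldh2 had -0.0046 with total counts only. Leaving out 1 well each, the ranges that crossed 0 were -0.013 to 0.087 for Aldh9a1 at 30 mM, and at 10 mM -0.026 to 0.031 for Adh5, -0.11 to 0.12 for Aldh3a2 and -0.039 to 0.080 for Aldh9a1. For the dose difference they were -0.10 to 0.058 for Aldh2, -0.013 (without the 30 mM well numbered 2) to 0.27 for Aldh3a2, -0.068 to 0.012 for Aldh7a1 and -0.074 to 0.043 for Aldh9a1, and between the controls -0.018 to 0.12 for Aldh2. The cause was not tested. All 3 other detection rules left 8 enzymes detected.

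The replicate numbers did not pair the wells. The correlation of wells with the same number ran from -0.132 to 0.21 over 8438 genes, and the wells correlated best with their own number only for the number 6. With a replicate block, 0 enzymes were called at 30 mM, 0 at 10 mM and 0 for the dose difference, and 5 between the controls, beside 1208, 68, 461 and 5860 of all genes. At 18 to 42 counts a well, counting error alone limits what can be seen of Aldh1b1, and more so of genes below it.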
